A study of Rattus norvegicus with 12 samples.

Results

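The interferon response genes described here are 40 rat gene symbols, all of them present among the 30045 symbols of the count table, and they were taken as a list of names, drawn up with earlier results of these data known and with no measured value in the rule. Of the 40, 32 are antiviral genes of the type I interferon response: 3 signalling genes, 3 RNA sensors and 26 effectors. The other 8 are 4 genes linked to interferon gamma and 4 genes of the immunoproteasome and the TAP peptide transporter. All 40 passed the filter on low counts, as did 15019 genes in total. The samples were pieces of lung from 12 male F344/DuCrl rats, bought at 3 months of age and housed 3 per cage, 1 library per rat. In the CNC group, 6 rats inhaled crystalline nanocellulose (CNC), rod-shaped crystals made from plant cellulose, at 20 mg/m3 in whole-body chambers for 6 hours a day on 5 days a week until 14 days of exposure had been given. In the air group, 6 rats were given air in such chambers. Lungs of both groups were taken 1 day after the last exposure, and the design asks how the lung responds to inhaled CNC.

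Interferons are secreted proteins by which cells warn one another of infection. Type I interferons signal through a receptor that activates the kinases Jak1 and Tyk2 and, through them, a complex that holds Stat2 and Irf9 and binds the interferon-stimulated response element (ISRE) of antiviral genes. Interferon gamma, made mainly by T and NK cells, acts through the gamma-activated site (GAS) of its target genes, and raises guanylate-binding proteins and the machinery that cuts and loads peptides for MHC class I. In the lung, these genes are best known from viral infection.

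The response elements can be read directly in the promoters of several members. RefSeq promoters of the rat build GRCr8, from 250 bases before to 50 after each gene's start, were matched by symbol for 30 of the 40 genes, and they were searched for the ISRE core GAAANNGAA on both strands and the palindromic GAS core TTCNNNGAA. Shown first are the promoters of the 2 CNC-raised members that hold the ISRE core, then 2 GAS-core promoters from the gamma-linked and immunoproteasome genes. The last 3, chosen after the values were seen, hold the ISRE core 2 times each. Capitals mark the cores, which overlap in the pair of Oas1 genes, and the flanks are up to 30 bases, cut short in Psmb8 by the edge of the window.
Lgals3bp (chr10:104127860-104127928, minus strand): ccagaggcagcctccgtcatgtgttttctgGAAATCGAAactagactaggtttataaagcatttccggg
Isg20 (chr1:142239937-142240005, plus strand): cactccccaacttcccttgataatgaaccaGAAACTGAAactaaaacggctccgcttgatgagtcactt
Irf1 (chr10:38417763-38417831, plus strand): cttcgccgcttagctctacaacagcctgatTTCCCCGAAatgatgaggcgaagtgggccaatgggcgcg
Psmb8 (chr20:4657238-4657281, minus strand): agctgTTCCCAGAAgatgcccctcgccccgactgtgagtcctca
Oas1a (chr12:41330395-41330469, plus strand): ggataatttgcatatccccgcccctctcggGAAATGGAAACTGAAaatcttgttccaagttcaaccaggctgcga
Oas1b (chr12:41395867-41395941, minus strand): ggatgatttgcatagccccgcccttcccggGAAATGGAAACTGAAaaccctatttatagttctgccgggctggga
Ifit3 (chr1:241527253-241527340, plus strand): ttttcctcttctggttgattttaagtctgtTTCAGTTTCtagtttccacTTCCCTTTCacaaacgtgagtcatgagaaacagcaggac
The ISRE core began 50 bases before the start of Lgals3bp and 92 bases before that of Isg20, and the GAS core 142 bases before the start of Irf1. The ISRE core was present in 22 of the 30 member promoters (73.3%), against 3251 of all 33469 promoters in the table (9.71%). For the GAS core the counts were 8 of 30 (26.7%), against 2970 of 33469 (8.87%). Irf1 and Psmb8 were the gamma-linked or immunoproteasome members with the GAS core. Antiviral members with it were Irf9, Oas1a, Oas1b, Bst2, Ifi44l and Parp14. The ISRE core was also held by Gbp2, Gbp4, Gbp5, Psmb8, Tap1 and Tap2, so neither core was particular to a class. Among members with a promoter, 2 of the 4 called higher in CNC held the ISRE core, as did 20 of the 26 not called. A match is a description of letters in this window and not a binding site.

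CNC lungs held slightly more mRNA of 8 of the 40 interferon response genes and significantly less of none. Lgals3bp, Dhx58, Oasl, Isg20, Ifi27l2b, Stat2, Usp18 and Ifit1 rose by 1.09- to 1.38-fold, and no member reached 1.5-fold, a size that 542 genes called elsewhere in the lung did reach. The 8 of 40 called (20.0%) stand beside 24.6% of all 15019 tested genes, a share near the background. Counting only genes higher in CNC, the members' 20.0% stands beside 13.2% of all genes, and their 0 lower beside 11.4%. A gene is called here when the quasi-likelihood test of edgeR, adjusted over all tested genes by the Benjamini-Hochberg method, gives an adjusted p under 0.05, and rose or higher is used of called genes. At an unadjusted p under 0.05 there were 11 members. The median log2 fold change (CNC over air) was 0.05 over the 40 members and -0.0026 over all genes. The median size of the change, sign aside, was 0.0981 for members and 0.111 for all genes on the log2 scale. A positive change, called or not, was found in 33 of the 40 members and in 49.4% of all genes. The groups did not overlap for 1 member, Dhx58, against 11.5% of all genes.

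**Figure D1:**
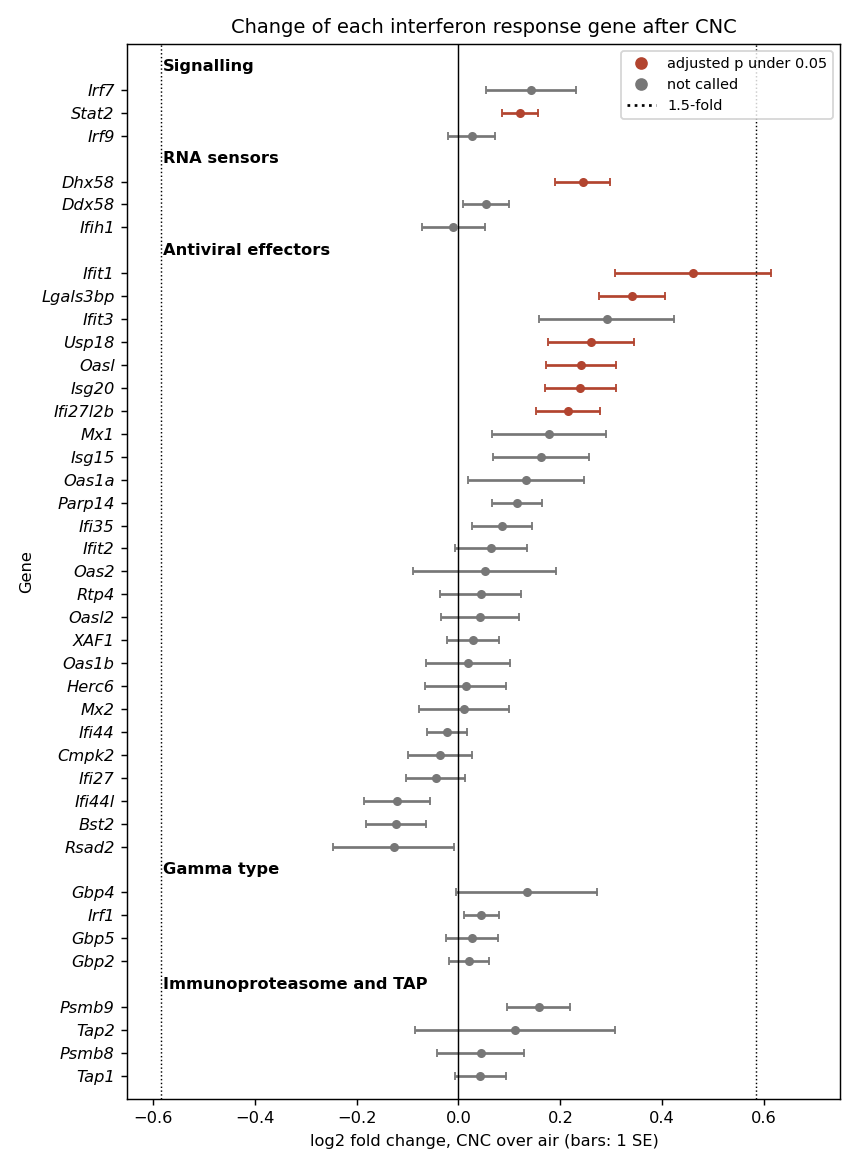
Log2 fold change, CNC over air, of each of the 40 members, grouped by role; points are edgeR estimates, bars are 1 standard error, and dotted lines mark 1.5-fold. The 8 called members (red) lie between 0.12 and 0.46, and the 8 gamma-linked and immunoproteasome genes at the bottom are all grey.

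Among the signalling genes, Stat2 was called. Stat2, the transactivating factor of the type I complex, had 134 to 143 CPM in CNC lungs (median 139), against 116 to 136 CPM in air lungs (median 129). It rose 1.09-fold (log2 fold change 0.12 ± 0.04 SE, edgeR adjusted p = 0.0227), with 4 of 6 CNC rats above every air rat. The rise was lost without CNC 4 (adjusted p = 0.054). Irf7, the factor that amplifies type I interferon production, had 71.3 to 91.0 CPM in CNC lungs (median 77.1), against 56.1 to 84.9 CPM in air lungs (median 71.1). All 6 CNC rats lay above the air median, 1 of them above every air rat, and the change of 0.14 ± 0.09 on the log2 scale was not called (edgeR adjusted p = 0.275). Irf9, the DNA-binding part of the complex, averaged 89.7 ± 3.88 CPM in CNC lungs and 88.2 ± 6.14 CPM in air lungs (SD, n = 6 each), and the ranges overlapped almost fully.

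Of the RNA sensors, Dhx58 was the one called. Dhx58 (LGP2), a helicase that tunes the sensors RIG-I and MDA5, had 28.6 to 31.7 CPM in CNC lungs (median 30.4), against 23.0 to 27.8 CPM in air lungs (median 26.1). Every CNC rat was above every air rat. The rise was 1.18-fold (log2 fold change 0.24 ± 0.05 SE, edgeR adjusted p = 0.00359). Ddx58 (RIG-I itself) averaged 83.9 ± 2.33 CPM in CNC lungs and 81.1 ± 6.23 CPM in air lungs, and Ifih1 (MDA5) averaged 42.97 ± 2.51 and 43.4 ± 4.49 CPM in the same order. Neither was called (edgeR adjusted p = 0.441 and 0.934), and the ranges of both overlapped between the groups.

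Effectors supplied the other 6 calls, 6 of 26 genes (23.1%), near the 24.6% of all tested genes. Lgals3bp, a secreted glycoprotein that binds galectins, had the smallest adjusted p of all members. Its level was 222 to 269 CPM in CNC lungs (median 250.4), against 179.8 to 236 CPM in air lungs (median 192). It rose 1.27-fold (log2 fold change 0.34 ± 0.06 SE, edgeR adjusted p = 0.00115), and 4 of 6 CNC rats were above every air rat. A single air rat, air 4, overlapped the CNC range, at 236 CPM against 193 CPM in the next highest air rat. Isg20, an exonuclease that degrades viral RNA, had 15.4 to 17.8 CPM in CNC lungs (median 16.5), against 12.5 to 16.6 CPM in air lungs (median 14.0). It rose 1.18-fold (log2 fold change 0.24 ± 0.07 SE, edgeR adjusted p = 0.0203), with 1 air rat above the lowest CNC rat. Usp18, the protease that removes Isg15 from proteins and damps the receptor, had 26.6 to 31.7 CPM in CNC lungs (median 29.0), against 19.7 to 28.8 CPM in air lungs (median 25.2). It rose 1.20-fold (0.26 ± 0.08 on the log2 scale, edgeR adjusted p = 0.0347), with 3 of 6 CNC rats above every air rat. Its call was lost without CNC 3, CNC 4 or CNC 5 and without air 1, air 2 or air 3 (adjusted p = 0.0561 to 0.078). Isg15, the ubiquitin-like protein itself, had 27.1 to 38.2 CPM in CNC lungs (median 30.0), against 22.8 to 31.5 CPM in air lungs (median 29.2), with overlapping ranges, and was not called (log2 fold change 0.16 ± 0.09 SE, edgeR adjusted p = 0.241).

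The OAS family, whose main members sense double-stranded RNA and activate an RNase, had 1 called gene among its 5 members. Oasl, a relative of the enzymes, had 17.0 to 19.5 CPM in CNC lungs (median 18.5), against 13.5 to 17.9 CPM in air lungs (median 15.4). It rose 1.18-fold (log2 fold change 0.24 ± 0.07 SE, edgeR adjusted p = 0.0180), and 4 of 6 CNC rats were above every air rat. The other 4 members of the family were not called. Oas1a averaged 14.0 ± 2.32 CPM in CNC lungs and 12.8 ± 1.73 CPM in air lungs, Oas1b 15.3 ± 1.05 and 15.2 ± 1.88 CPM, Oas2 16.7 ± 2.65 and 16.3 ± 3.56 CPM, and Oasl2 92.4 ± 5.97 and 90.1 ± 12.2 CPM, in the same order (SD, n = 6 each). Reads of such related copies may be split between them, which makes single OAS values uncertain. Copies in other families, such as Mx1 and Mx2 or Ifi27 and Ifi27l2b, share that limit.

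In the IFIT family, which binds foreign RNA ends, Ifit1 had the largest log2 fold change of any member and rested on few reads. Ifit1 had 2.55 to 4.34 CPM in CNC lungs (median 3.47), against 1.83 to 2.98 CPM in air lungs (median 2.63), from 22 to 60 counts per library. It rose 1.38-fold (log2 fold change 0.46 ± 0.15 SE, edgeR adjusted p = 0.0393), with 5 of 6 CNC rats above every air rat and CNC 5 among the air rats. That call was kept in 3 of the 12 fits that each left out 1 rat, those without CNC 2, CNC 5 or air 4, and lost in the other 9 (adjusted p = 0.0525 to 0.0924). Ifit3 spread widely among air rats, with 44.6 to 53.99 CPM in CNC lungs (median 50.7), against 25.4 to 54.9 CPM in air lungs (median 39.6), and its log2 fold change of 0.29 ± 0.13 SE was not called (edgeR adjusted p = 0.130), although it passed without air 6 (adjusted p = 0.0401). Ifit2 averaged 84.4 ± 4.06 CPM in CNC lungs and 81.0 ± 10.7 CPM in air lungs and was not called.

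Ifi27l2b, a small protein of the Ifi27 family, was the last of the called effectors. It had 27.5 to 36.8 CPM in CNC lungs (median 31.99), against 25.6 to 30.3 CPM in air lungs (median 27.6), and 5 of 6 CNC rats were above every air rat while CNC 1 was not. The rise was 1.16-fold (log2 fold change 0.22 ± 0.06 SE, edgeR adjusted p = 0.0213). Its relative Ifi27 averaged 319 ± 27.7 CPM in CNC lungs and 329 ± 23.8 CPM in air lungs and was not called. Mx1, a GTPase that traps viral particles, had 65.1 to 80.0 CPM in CNC lungs (median 77.6), against 45.02 to 87.4 CPM in air lungs (median 66.2), and was called only without air 4 among the fits that left out 1 rat (adjusted p = 0.0452). Mx2 averaged 98.0 ± 6.91 CPM in CNC lungs and 97.8 ± 15.7 CPM in air lungs. Members with a negative change were 7, all of the antiviral class and none called: Rsad2 (-0.13), Bst2 (-0.12), Ifi44l (-0.12), Ifi27 (-0.04), Cmpk2 (-0.04), Ifi44 (-0.02) and Ifih1 (-0.01), on the log2 scale. Rsad2 (viperin), which makes a chain-terminating nucleotide, had 15.9 to 27.5 CPM in CNC lungs (median 20.8), against 19.9 to 28.6 CPM in air lungs (median 22.4). Bst2 (tetherin), which holds budding virus at the cell surface, had 152 to 208 CPM in CNC lungs (median 173), against 172 to 199 CPM in air lungs (median 194), and was called lower when CNC 3, its highest CNC rat, was left out (log2 fold change -0.18, adjusted p = 0.0132). Herc6, Rtp4, XAF1, Ifi35 and Parp14 had log2 fold changes of 0.01, 0.04, 0.03, 0.09 and 0.11 and were not called. Parp14 passed without air 6 (adjusted p = 0.00549).

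**Figure D2:**
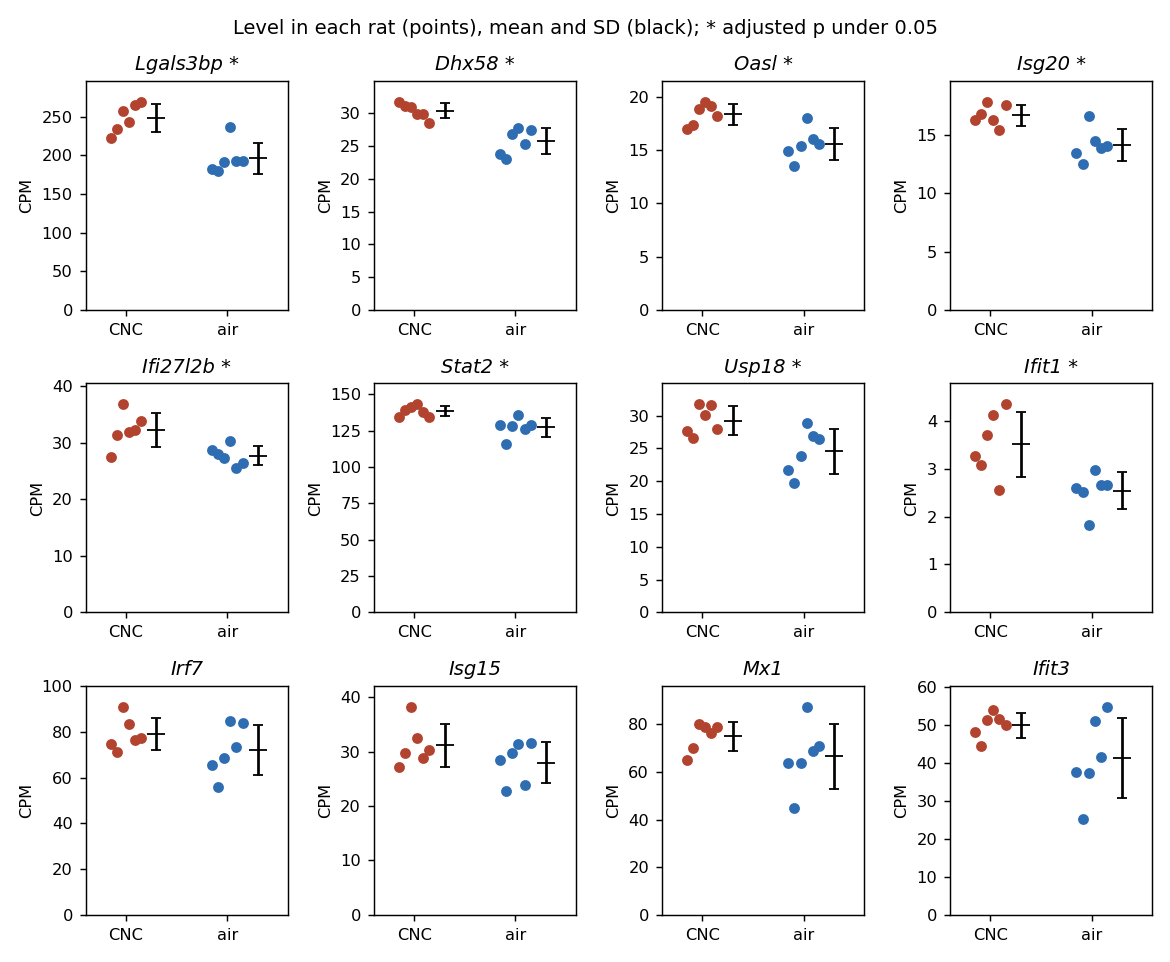
Level (TMM-scaled CPM, axis from 0) of the 8 called members and 4 known antiviral genes that were not called, 1 point per rat, CNC left and air right; the black bar is the mean and SD of 6 rats. Dhx58 separates the groups, and the groups overlap for Irf7, Isg15, Mx1 and Ifit3, with 2 CNC rats above every air rat for Isg15, 1 for Irf7 and 0 for Mx1 and Ifit3. These 4 have the largest positive changes among the uncalled antiviral members. Members with a change near 0 or negative, such as Mx2, Rsad2 and Bst2, are not drawn.

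None of the 8 gamma-linked, immunoproteasome and TAP members was called by edgeR (0%, against 24.6% of all tested genes). Of the 8, 1 had an unadjusted p under 0.05. Their log2 fold changes were all positive, from 0.02 to 0.16, with a median of 0.04, against a median of 0.06 for the 32 antiviral members. Irf1, a transcription factor induced early by interferon gamma and the holder of the GAS core shown above, had 137 to 150.4 CPM in CNC lungs (median 144), against 133 to 146 CPM in air lungs (median 139), ranges that overlapped. Among the guanylate-binding proteins, GTPases that attack intracellular pathogens, Gbp2 averaged 136 ± 2.88 CPM in CNC lungs and 135 ± 8.48 CPM in air lungs. Gbp5, at 77.6 ± 3.995 CPM in CNC lungs and 76.3 ± 5.90 CPM in air lungs, was as close, and Gbp4, at 61 to 137 counts per library, had 8.40 ± 1.06 and 7.67 ± 1.73 CPM in that order. Psmb9, an inducible catalytic subunit of the immunoproteasome, had 69.8 to 85.0 CPM in CNC lungs (median 76.9), against 63.8 to 80.7 CPM in air lungs (median 67.9). All 6 CNC rats exceeded the air median, and its change of 0.16 ± 0.06 on the log2 scale missed the threshold (edgeR adjusted p = 0.0741), passing without CNC 2 (0.0425) or without air 4 (0.011). The companion subunit Psmb8 averaged 25.8 ± 3.41 CPM in CNC lungs and 25.02 ± 2.43 CPM in air lungs. Tap1 and Tap2 form the transporter that carries peptides into the endoplasmic reticulum. Tap1 averaged 120.5 ± 5.35 CPM in CNC lungs and 117 ± 9.75 CPM in air lungs. Tap2 ran from 9.80 to 16.3 CPM in CNC lungs and from 7.66 to 19.0 CPM in air lungs, highest of all rats in air 2, the air rat that was lowest for most antiviral members.

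The interferons themselves were at the limit of detection. Of 14 ligand symbols, 11 were in the table and none passed the filter. Ifnb1, Ifna1, Ifna2, Ifna4, Ifna11, Ifna16l1, Ifnk and Ifnl3 had 0 counts in all 12 libraries, where a count of 0 allows up to 0.181 to 0.345 CPM per library (3 counts). Ifna5 had 2 counts over the CNC libraries and 1 over the air libraries, and Ifne had 1 in each group. Ifng, the gamma interferon of T and NK cells, had 9 counts over the 6 CNC libraries and 6 over the 6 air libraries, where each air rat had 1. These totals cover counting error only and were too low to test for a difference.

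Among 13 receptor and JAK-STAT genes, 3 were called higher and 0 lower (23.1% called, against 24.6% of all tested genes). Ifngr2, the signalling chain of the gamma receptor, had 48.2 to 56.9 CPM in CNC lungs (median 53.2), against 42.6 to 47.8 CPM in air lungs (median 45.7), with every CNC rat above every air rat. It rose 1.16-fold (log2 fold change 0.22 ± 0.04 SE, edgeR adjusted p = 0.00178). Il10rb, the chain shared by the interferon lambda and interleukin-10 receptors, rose 1.16-fold (adjusted p = 0.00152), averaging 64.5 ± 3.31 CPM in CNC lungs and 55.6 ± 2.71 CPM in air lungs. Ptpn6 (SHP-1), a phosphatase of blood cells that restrains Jak kinases, rose 1.14-fold (adjusted p = 0.0104), with 133 ± 10.4 CPM in CNC lungs and 117 ± 4.67 CPM in air lungs. The type I receptor chains Ifnar1 (-0.06 ± 0.03) and Ifnar2 (-0.00 ± 0.04), the ligand-binding Ifngr1 (-0.04 ± 0.04) and Ifnlr1 (-0.06 ± 0.06) were not called, values being log2 fold changes ± SE. The kinases Jak1 (0.00), Jak2 (0.13) and Tyk2 (0.05), the feedback inhibitors Socs1 (-0.24) and Socs3 (0.18) and the phosphatase Ptpn2 (0.11) were not called either. Jak2, at an adjusted p of 0.0513, was the nearest of these to the threshold and passed without CNC 3, CNC 4, CNC 6 or air 5 (0.0271 to 0.0444).

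Upstream of the interferons, 6 of 17 tested genes of nucleic acid sensing rose and 0 fell (35.3% higher, against 13.2% of all tested genes). The largest change was that of Tmem173 (STING), the adaptor that passes the signal of cytosolic DNA to interferon genes. It had 38.5 to 46.6 CPM in CNC lungs (median 44.5), against 21.1 to 29.7 CPM in air lungs (median 22.4). All CNC rats exceeded all air rats, a 1.82-fold rise (log2 fold change 0.87 ± 0.08 SE, edgeR adjusted p = 3.00e-06), larger than that of any of the 40 members. Ikbke, a kinase that activates Irf3 and Irf7, rose 1.32-fold (114 ± 5.20 CPM in CNC lungs, 86.6 ± 7.70 CPM in air lungs, adjusted p = 4.94e-05), again without overlap. Irf5, a factor of macrophages and dendritic cells, rose 1.30-fold (adjusted p = 0.00743). Tlr7, the endosomal receptor for single-stranded RNA, rose 1.30-fold (adjusted p = 0.0220) but was lost without CNC 1 (0.0509) or air 2 (0.0575), and without CNC 1 the list had 3 calls in place of 6.

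In a wider list of other type I targets, 6 of 44 tested genes rose and 3 fell, and the 44 log2 fold changes had a median of 0.05. The 13.6% higher stands beside 13.2% of all tested genes, a share at the background. Plscr1, a phospholipid scramblase with antiviral activity, rose by 0.32 ± 0.05 SE on the log2 scale (56.8 ± 3.44 CPM in CNC lungs, 45.3 ± 2.68 CPM in air lungs, edgeR adjusted p = 1.95e-04). Apobec3b, a cytidine deaminase, rose 1.36-fold (adjusted p = 0.00291) and the membrane protein Ifitm1, which blocks viral entry, rose 1.24-fold (adjusted p = 0.0101). Trim34, a tripartite motif protein, fell to 63.2 ± 1.48 CPM in CNC lungs, against 74.3 ± 3.05 CPM in air lungs (log2 fold change -0.23 ± 0.03 SE, adjusted p = 1.29e-04), and the groups did not overlap.

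Of 19 other tested genes linked to interferon gamma, 8 rose and 0 fell (42.1% higher, against 13.2% of all tested genes). Ifi30 (GILT), the lysosomal reductase that prepares antigens, had 113 to 155 CPM in CNC lungs (median 137), against 74.2 to 90.6 CPM in air lungs (median 83.3). Every CNC rat was above every air rat, a 1.67-fold rise (log2 fold change 0.74 ± 0.07 SE, edgeR adjusted p = 3.45e-06). Cd274 (PD-L1), the ligand of the T cell checkpoint receptor, rose 1.39-fold, averaging 63.2 ± 4.50 CPM in CNC lungs and 45.6 ± 2.46 CPM in air lungs (adjusted p = 1.13e-05). Irf8, a factor of macrophage and dendritic cell lineages, rose 1.29-fold (adjusted p = 1.22e-04), and Nampt, an enzyme of NAD synthesis, rose 1.15-fold (adjusted p = 5.65e-04). Cxcl10, a chemokine that draws T cells and that was singled out after its values were seen, had 1.499 to 5.01 CPM in CNC lungs (median 2.75), against 1.15 to 2.33 CPM in air lungs (median 1.78), at 16 to 73 counts per library. It rose 1.69-fold (log2 fold change 0.75 ± 0.26 SE, adjusted p = 0.0423), with 4 of 6 CNC rats above every air rat. The call held without CNC 1, CNC 2 or air 3 and was lost without any 1 of the other 9 rats (adjusted p = 0.0501 to 0.113), and without CNC 4 the log2 fold change was 0.51.

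In the class I presentation list 8 of 18 tested genes rose and 0 fell (44.4% higher, against 13.2% of all tested genes). They included the chaperone Calr (1.24-fold, adjusted p = 3.68e-05), the proteasome activator Psme2 (1.19-fold, 8.73e-04), the loading-complex protein Pdia3 (1.12-fold, 0.00140) and the class I molecule RT1-A1 (1.20-fold, 0.00595), whose close RT1 copies make its value uncertain. Psmb10, the third inducible subunit of the immunoproteasome, also singled out after its values were seen, had 60.8 to 73.6 CPM in CNC lungs (median 66.3), against 51.6 to 64.6 CPM in air lungs (median 56.4) and rose 1.17-fold (log2 fold change 0.23 ± 0.06 SE, adjusted p = 0.00774). In a list of 14 constitutive proteasome subunits, not limited to those that the immunoproteasome replaces, 7 rose and 0 fell. That is 50% higher, against 13.2% of all tested genes. Psmb5, which Psmb8 replaces in the immunoproteasome, averaged 57.9 ± 3.21 CPM in CNC lungs and 49.9 ± 3.45 CPM in air lungs, a 1.16-fold rise (adjusted p = 0.00558), and Psmb2, Psmb7 and Psma4 rose 1.12- to 1.14-fold (adjusted p = 0.00138, 0.00578 and 0.00792).

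**Figure D3:**
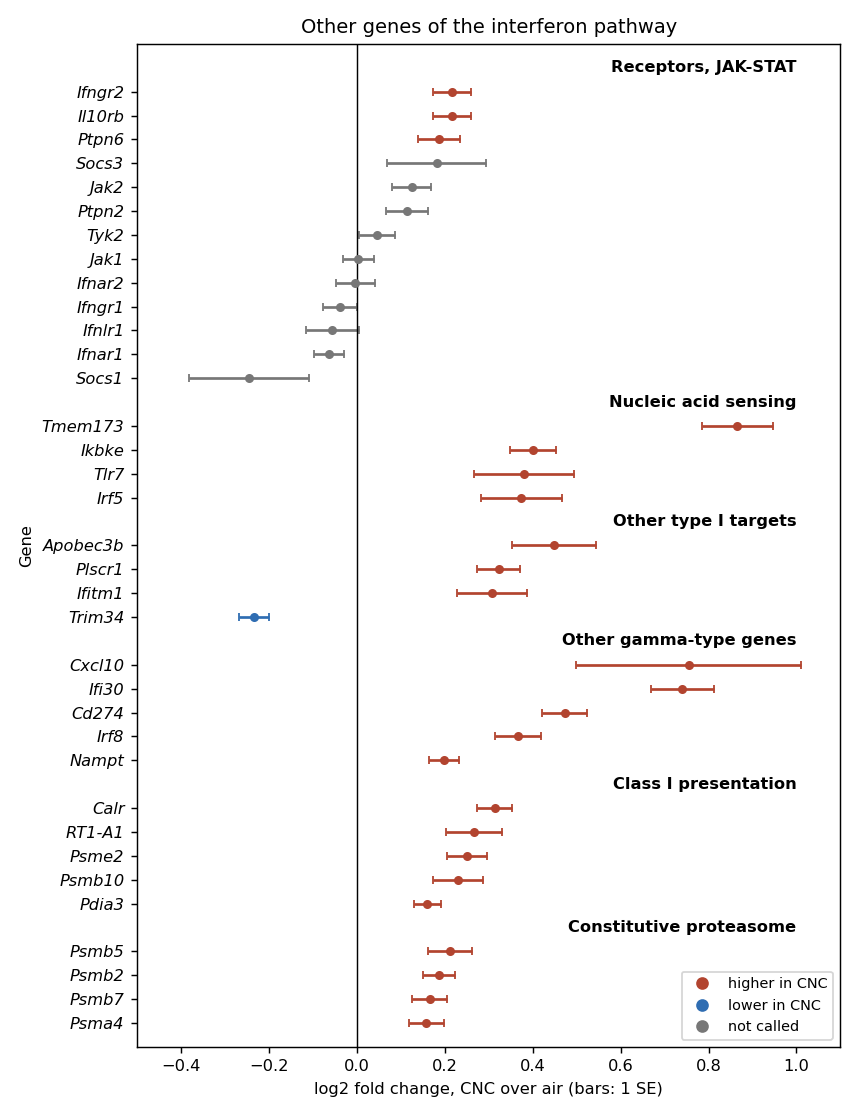
Log2 fold change, CNC over air, with bars of 1 standard error, for the 13 receptor and JAK-STAT genes and for up to 4 called genes of smallest adjusted p from each other list; Cxcl10 and Psmb10 were added, and uncalled genes of those other lists are not drawn. Tmem173, Cxcl10 and Ifi30 stand farthest to the right, and the type I receptor chains Ifnar1 and Ifnar2 lie at 0 or just below it.

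Rats within a group differed in the antiviral genes by as much as the groups did. The mean over the 32 antiviral members, on a log2 CPM scale with each gene set to 0 over the 12 rats, was -0.05, -0.01, 0.18, 0.08, 0.02 and 0.06 in CNC 1 to 6 and -0.10, -0.26, -0.06, 0.12, -0.07 and 0.09 in air 1 to 6. Averages were 0.05 ± 0.08 in CNC lungs and -0.05 ± 0.14 in air lungs (SD, n = 6 each), so the difference of 0.10 was smaller than the SD among air rats, and air 4 and air 6 lay above 5 of the 6 CNC rats. CNC 3 was the highest CNC rat for 18 of the 32 genes and CNC 1 the lowest for 16. Air 2 was the lowest air rat for 24 of the 32 genes, and air 4 the highest for 18 and air 6 for 12. Most of the antiviral genes thus moved together from rat to rat. Pearson's r of a member with the mean of the other antiviral members, group means removed, was 0.96 for Irf7 and Mx2. It was lower for Parp14 (0.26), Ifit1 (0.30), Bst2 (0.43), Ifi27l2b (0.45) and Isg20 (0.48). Of these, Ifit1, Ifi27l2b and Isg20 were called, and the other called members had 0.64 (Dhx58) to 0.82 (Usp18). With the group means removed, Pearson's r between 2 antiviral members over the 12 rats had a median of 0.593 over 496 pairs, of which 482 were positive, and of 0.513 without air 2. Over all pairs of tested genes the median r was -0.001. These r are a description of genes measured in the same 12 libraries, with no test. For the 8 gamma-linked and immunoproteasome members the median r was 0.447 over 28 pairs, and between both classes it was 0.376 over 256 pairs. Their class mean was 0.04 ± 0.04 in CNC lungs and -0.04 ± 0.07 in air lungs on the same log2 scale.

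**Figure D4:**
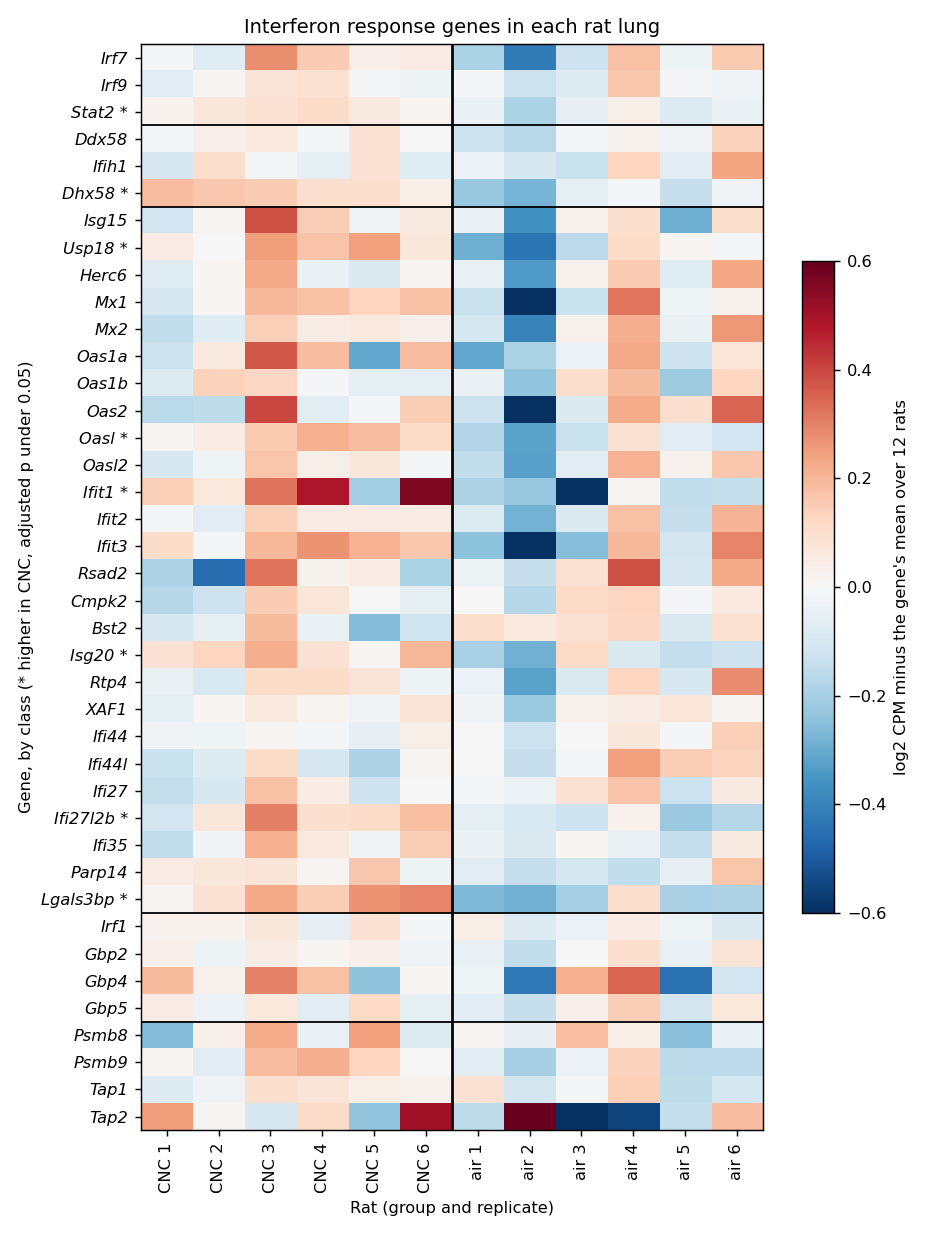
Log2 CPM of each member minus its mean over the 12 rats (colour scale cut at -0.6 and 0.6), CNC rats left of the black line and air rats right, with horizontal lines between roles and * on called genes. The air 2 column is blue for most antiviral genes and the CNC 3 column red, while the Tap2 row follows neither.

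**Figure D5:**
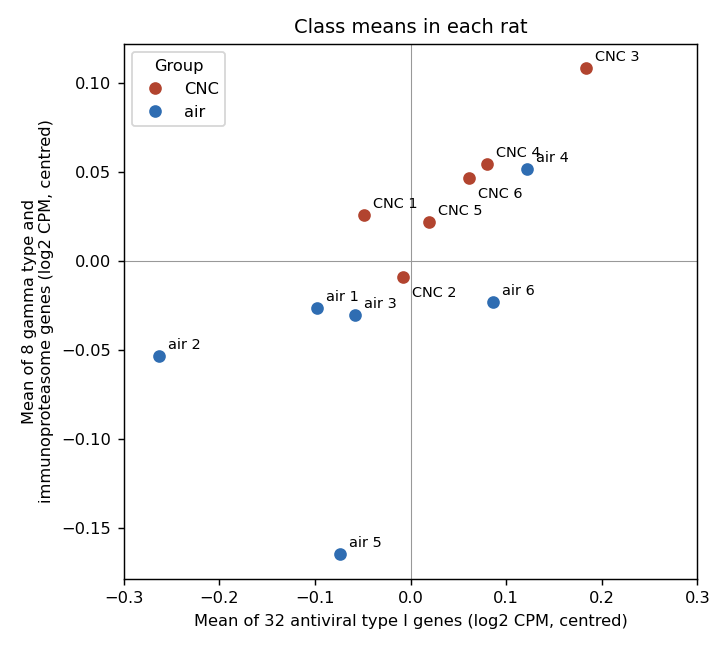
Mean centred log2 CPM of the 32 antiviral members (horizontal) and of the 8 gamma-linked and immunoproteasome members (vertical), 1 point per rat. Air 2 lies farthest left at -0.26, CNC 3 farthest up and right at 0.18 and 0.11, and the groups overlap on both axes.

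Several measures of the tissue moved with the exposure beside these small changes. In bulk lung, fewer cells of a type and less RNA per cell cannot be told apart. Over all tested genes, 13.2% were called higher and 11.4% lower, the shares beside which the marker counts stand. The summed level of 12 neutrophil markers was 510.1 to 798 CPM in CNC lungs and 184 to 298 CPM in air lungs, with 7 of 11 tested markers higher and 1 lower. The summed level of 10 alveolar macrophage markers was 888 to 1204 CPM in CNC lungs and 668 to 769 CPM in air lungs, with 6 of 9 tested higher and 2 lower, and with Marco listed at 0 in every library. The sum of 11 monocyte and interstitial macrophage markers overlapped between the groups, at 901 to 1142 CPM in CNC lungs and 965 to 1094 CPM in air lungs. Of these 11, 5 were higher and 3 lower. Sums of B cell and airway markers overlapped too. The 13 endothelial markers summed to 6270 to 7044 CPM in CNC lungs and 7600 to 8810 CPM in air lungs, with 12 of 13 lower. The 10 alveolar type 2 markers summed to 31206 to 38254 CPM in CNC lungs and 23526 to 30698 CPM in air lungs, with 8 of 10 higher. The 8 fibroblast markers summed to 1886 to 2123 CPM in CNC lungs and 2218 to 2810 CPM in air lungs, with 5 of 7 tested lower. The 7 red cell markers summed to 1997 to 2665 CPM in CNC lungs and 2976 to 3787 CPM in air lungs, with 6 of 7 lower. The 8 markers of plasmacytoid dendritic cells, the main makers of type I interferon, summed to 142 to 162 CPM in CNC lungs and 132 to 148 CPM in air lungs. Of the 8, 2 were higher, Irf8 being 1 of them, and 1, Tcf4, was lower. In CNC lungs Irf8 averaged 74.2 CPM and Tcf4 40.3 CPM, within a mean sum of 151 CPM, so the sum mostly follows these genes. Siglech averaged 1.17 CPM in CNC lungs and 1.04 CPM in air lungs and was not called. The sum is therefore a weak measure of these cells. T and NK cell markers summed to 356 to 433 CPM in CNC lungs and 381 to 487 CPM in air lungs, with 0 of 14 higher and 2 lower. The part of these shifts in the interferon results was not tested. Circadian clock genes also separated the groups, their first principal component running from 0.38 to 1.29 in CNC lungs and from -1.53 to 0.28 in air lungs, lowest in air 2 and highest of the air rats in air 4. Other rats did not keep the order of the antiviral means. Air 6 was at -1.18 and CNC 3 at 0.68 on the component, while their antiviral means were 0.09 and 0.18. With that component as a covariate no member was called by edgeR, 10 of 40 changes were positive, and the median log2 fold change of the members was -0.13, and 442 genes were called higher and 245 lower over the whole table. The clock and the exposure can hardly be told apart in such a fit, because the component separates the groups. Of the pathway lists, it left 0 of 3 calls among receptor and JAK-STAT genes, 1 of 6 in nucleic acid sensing, 0 of 9 among other type I targets, 1 of 8 among other gamma-linked genes, 1 of 8 in class I presentation and 0 of 7 among constitutive proteasome subunits. Ifngr2, Il10rb, Ptpn6, Ikbke, Plscr1, Cd274, Irf8 and Psmb10 were among those that lost their call (adjusted p = 0.0538 to 0.967). The calls that held were Tmem173 (log2 fold change 0.42, adjusted p = 0.0371), Ifi30 (0.70, adjusted p = 0.0216) and Calr (0.36, adjusted p = 0.0243).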

How the data were processed

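Gene expression was measured by RNA sequencing of lung pieces from 12 rats. Per the labels' protocols, strand-specific libraries were made from polyadenylated RNA and amplified over PCR cycles, and amplified reads are not independent molecules. The authors deposited raw counts per gene symbol, whole numbers with no normalization. The submitters' processing notes list HISAT2 2.1.0, HTSeq 0.11.2, SAMtools 1.8, Cufflinks, Trimmomatic 0.35 and bcl2fastq 2.19 and give no role for any of them. The name of the deposited table holds the build Rnor6. Which annotation was counted, and with what strand setting, is not given in the sources used here, so overlapping, antisense and near-identical genes are uncertain. Library totals ran from 8693259 to 16603697 counts. Groups come from the treatment label, each library is a separate rat, and which rats shared a cage or a sequencing run was not analysed here. No library pair within a group looked like a repeat: the chi-square of counts per degree of freedom was 2.69 to 8.36 over 30 pairs.

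The analysis used edgeR 4.0.16 (R 4.3.3) with filterByExpr (minimum count 10, minimum total 15), TMM scaling, glmQLFit and glmQLFTest of CNC against air, with Benjamini-Hochberg adjustment over 15019 genes and a threshold of 0.05. CPM were scaled by TMM, a prior count of 2 was added for log2 CPM, and CPM were not compared between genes, since gene lengths were not used. The XAF1 symbol was matched ignoring case. The procedure was tested on simulated data made from the same libraries, with 50 genes changed at each size. It recovered 56% of the 1.25-fold changes, 86% of the 1.5-fold changes and 94% of the 2-fold changes. Of its 176 calls over 14945 genes, 11 fell on unchanged genes. The real data gave 3691 calls over 15019 genes. With so many more calls the Benjamini-Hochberg cut on p was looser there, so the recovered shares may be too low for the real data. A gene not called is still not shown to be unchanged, least of all at the small sizes seen in the members. The limits given for a count of 0 cover counting error only, while SDs and standard errors cover the spread between rats.

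The members and gene lists were chosen with earlier results of these data known, and no list was tested as a set. Named genes are all members, the listed ligands, receptors and JAK-STAT genes, and up to 4 called genes of smallest adjusted p from each other list, with Cxcl10 and Psmb10 added after their values were seen, and 1 gene that this rule would name is not reported here. Printed promoters are called members with the ISRE core, up to 2 with the GAS core from the gamma-linked and immunoproteasome genes, and 3 chosen after seeing values. Alternatives were DESeq2 1.42.0 size factors, library size alone, upper-quartile scaling, no filter, a filter of 1 CPM in 6 libraries, robust edgeR, limma-voom from limma 3.58.1, the Wald test of DESeq2, covariates for clock genes or for heart muscle markers, leaving out each rat, leaving out air 4 and air 5 or CNC 3 and CNC 6 together, and, added after seeing the data, leaving out air 2 and CNC 3 together. Python 3.11.15 with matplotlib 3.10.9 drew the figures.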

Additional observations from a re-analysis of the deposited data

Results flagged for a closer look

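Sets of 6 rats, 1 per group for each gene and for each of the 2 class means, numbered 154. Of these, 8 held a rat whose gap to its nearest neighbour took more than 0.625 of the set's whole range. Chance flags about 1 in 20 groups, which for 154 is 7.7. Among the members, Herc6 was highest in CNC 3, at 136.9 CPM against 118 CPM in the next CNC rat. Parp14 was highest in air 6, at 142 CPM against 122 CPM in the next air rat. Lgals3bp was highest in air 4, at 236 CPM against 193 CPM. XAF1 was lowest in air 2, at 27.2 CPM against 31.5 CPM in the nearest air rat. Bst2 was lowest in air 5, at 172 CPM against 189 CPM. Among the pathway genes, Tyk2 was highest in CNC 4, at 85.8 CPM against 78.6 CPM, and Pdia3 was highest in CNC 1, at 665 CPM against 621 CPM. Psma4 was lowest in CNC 6, at 83.1 CPM against 90.7 CPM. No 2 of the 8 sets shared both the rat and the side, and the causes were not tested.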

How the results depend on the processing

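Over 25 alternatives, Dhx58 and Lgals3bp kept their calls in 24, Oasl, Isg20 and Ifi27l2b in 22, Stat2 in 20, Usp18 in 15 and Ifit1 in 9. Leaving out 1 rat at a time gave 5 to 10 members called higher (fewest without CNC 4) and 0 to 1 lower, 0 to 1 among signalling genes, 1 to 1 among RNA sensors, 4 to 7 among effectors and 0 to 1 among immunoproteasome and TAP genes. In all, 1712 to 1998 genes were then higher and 1379 to 1726 lower. Of the 8 members called in the full data, 5 were called with library size alone (0 signalling genes). With CNC 3 and CNC 6 left out, 2 members were higher (Dhx58 and Lgals3bp) and 1 lower (Bst2), 0 of them signalling genes and 2 effectors. With air 2 and CNC 3 left out, chosen after seeing the data, 2 were higher (Dhx58 and Lgals3bp) and 2 lower (Bst2 and Ifi44l), 0 of them signalling genes and 3 effectors. In that fit the list of other gamma-linked genes had 5 calls in place of 8, and class I presentation had 5 in place of 8. Leaving out 1 rat at a time gave 6 to 11 and 6 to 8 calls in these lists. With air 4 and air 5 left out, 1 immunoproteasome gene (Psmb9) was called. The clock covariate left 0 members called in any class and 442 genes higher and 245 lower over the whole table. The cause of these shifts was not tested. Stat2, Usp18, Oasl, Ifitm1 and Psmb10, called in the full data, turned negative with the clock covariate. Values that changed sign were all uncalled in their own fit. As log2 fold changes they were, with the clock covariate, Irf7 -0.19, Irf9 -0.20, Stat2 -0.0139, Isg15 -0.0594, Usp18 -0.0591, Herc6 -0.17, Mx1 -0.43, Mx2 -0.30, Oas1a -0.21, Oas1b -0.16, Oas2 -0.34, Oasl -0.0666, Oasl2 -0.25, Ifit2 -0.16, Ifit3 -0.20, Rtp4 -0.16, XAF1 -0.15, Irf1 -0.00913, Gbp2 -0.0820, Gbp4 -0.23, Gbp5 -0.0589, Psmb9 -0.0950, Tap1 -0.16, Ifnar1 0.0326, Ifnar2 0.0829, Ifitm1 -0.0111 and Psmb10 -0.0112. With air 2 and CNC 3 left out they were Irf9 -0.00919, Herc6 -0.0939, Mx2 -0.0885, Oas1b -0.0487, Oas2 -0.14, Oasl2 -0.0445, Ifit2 -0.00500, Rtp4 -0.0314, XAF1 -0.0212, Gbp2 -0.0120, Gbp5 -0.00756, Psmb8 -0.00469 and Ifnar2 0.0268. With CNC 3 and CNC 6 left out they were Ifih1 0.000212, Herc6 -0.0503, Mx2 -0.0342, Oas1b -0.000351, Oas2 -0.0908, XAF1 -0.00340 and Jak1 -0.00641. With air 4 and air 5 left out they were Ifih1 0.00230, Tap2 -0.0357 and Jak1 -0.00454. Library size alone gave Herc6 -0.00762, Mx2 -0.0119, Oas1b -0.00369, Gbp2 -0.00205 and Jak1 -0.0192, upper-quartile scaling Mx2 -0.00247 and Jak1 -0.00933, the heart muscle covariate Ifih1 0.00900 and Jak1 -0.00318, and no filter Ifnar2 0.000544. Over the fits that left out 1 rat, genes that changed sign ranged as follows: Ifih1 -0.0345 to 0.0359, Herc6 -0.0466 to 0.0638, Mx2 -0.0613 to 0.0647, Oas1b -0.0258 to 0.0655, Oas2 -0.0533 to 0.13, Oasl2 -0.0142 to 0.0956, Rtp4 -0.0142 to 0.11, XAF1 -0.0125 to 0.0489, Ifi44 -0.0499 to 0.00463, Gbp2 -0.00549 to 0.0456, Ifnar2 -0.0334 to 0.0174 and Jak1 -0.0146 to 0.0260. No paired analysis was possible because the replicate numbers only name a rat in accession order. Ifit1, at 22 to 60 counts per library, and the interferon ligands are limited by low counts.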
